A study of Mus musculus with 6 samples.

Results

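The insulin-like growth factor (IGF) axis of the infarcted mouse heart was followed through 10 genes: the ligands Igf1 and Igf2, the receptors Igf1r and Igf2r, and the binding proteins Igfbp2, Igfbp3, Igfbp4, Igfbp5, Igfbp6 and Igfbp7. They were chosen by symbol, and each matched 1 row of the 54532 genes in the count table. All 10 passed the filter on low counts, among 14406 genes tested. None of the 10 passed the test between genotypes. In 2 of the 3 libraries without ACKR4, Igfbp3, Igfbp4, Igfbp5 and Igfbp6 were at 47.9% to 62.7% of the wild-type mean, while the remaining library stayed near the wild-type level. Igfbp7, the most abundant member, was at 44.05% and 144% of the wild-type mean in the same 2 libraries and at 62.1% in the remaining library. The receptors differed little between any of the libraries.

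IGF-1 and IGF-2 are small secreted peptides related to insulin. Both act through the tyrosine kinase receptor encoded by Igf1r, which signals through insulin receptor substrates, PI3 kinase and AKT, while the receptor encoded by Igf2r carries IGF-2 to lysosomes and has no kinase. The binding proteins hold the ligands outside the cell, lengthen their stay or keep them from the receptor, and are cut by proteases such as PAPP-A. In the heart, IGF-1 from macrophages and stromal cells is known to act on growth and survival of cardiomyocytes after injury.

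The RNA came from hearts of C57BL/6 mice aged 8 to 10 weeks, taken at day 14 after myocardial infarction, with 3 libraries of wild-type animals (WT) and 3 of knockout animals without ACKR4 (ACKR4_KO), an atypical receptor that removes chemokines. Infarcted hearts gave all 6 libraries, and none from hearts without infarction were analysed here. Neither the part of the heart taken nor the making of the allele is described in the labels. The labels do not say whether the replicates are separate animals, so p-values measure only the spread between these libraries, which may be technical.

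Library totals lay between 9422462 and 13910358 reads. Ackr4 was read 165, 151 and 169 times in the WT libraries and 4, 1 and 12 times in the ACKR4_KO libraries. Values listed by library follow the order of replicates 1, 2 and 3 throughout. All 10 cardiomyocyte markers were detected in every library, with a summed level of 33734 to 42293 CPM (counts scaled to 1e+06 reads) in WT and 43899 to 60646 CPM in ACKR4_KO. The spread between libraries differed by genotype, with a biological coefficient of variation over all genes of 11.7% within WT and 26.8% within ACKR4_KO. Lung epithelium markers summed to 43.1 to 266 CPM across WT and 0.404 to 1.92 CPM in ACKR4_KO, with 8 of 10 at 0 reads in some library and the surfactant gene Sftpc at 0 in every ACKR4_KO library. Fast skeletal muscle markers without Ckm, which heart also expresses, summed to 4.67, 123 and 164 CPM in the WT libraries and to 2.91, 11.4 and 5.06 CPM in the ACKR4_KO libraries. The part of these tissues in the results was not tested, and values that bear on it are given beside the members.

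The levels of the members were compared per length, as CPM per kilobase of annotated exon, and spanned a wide range. Igfbp7 was highest, at 696 ± 104 CPM per kilobase in WT (mean ± SD, n = 3) and 581 ± 371 in ACKR4_KO (n = 3), a level above that of 99.6% of the genes tested. Igfbp4 followed at 109 ± 12.8 CPM per kilobase in WT and Igfbp6 at 97.9 ± 7.27, and the WT libraries of these neighbours overlapped. The next neighbours, Igfbp3 at 41.5 ± 5.40 and Igfbp5 at 40.5 ± 1.61 CPM per kilobase, also overlapped. Below them lay Igf2r at 20.9 ± 1.34, Igf1 at 7.30 ± 0.670, Igf1r at 2.13 ± 0.216, Igfbp2 at 0.744 ± 0.262 and Igf2 at 0.203 ± 0.0228 CPM per kilobase, each separate from its neighbours in WT. In ACKR4_KO the order of the means was the same. Beside the pairs that overlapped in WT, Igfbp3 and Igfbp5 both overlapped Igf2r there, and Igfbp2 overlapped Igf1, Igf1r and Igf2. Igf2 was thus near the bottom of the genes tested, above 1.51% of them, and Igf1 was the more abundant ligand transcript, at 36.04 ± 1.97 times the Igf2 level per kilobase in WT and 55.1, 9.06 and 67.8 times in ACKR4_KO replicates 1, 2 and 3. These ratios rest on few Igf2 reads, and an annotated gene shares 62.8% of the Igf2 exon bases, so the Igf2 level may be understated.

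**Figure D1:**
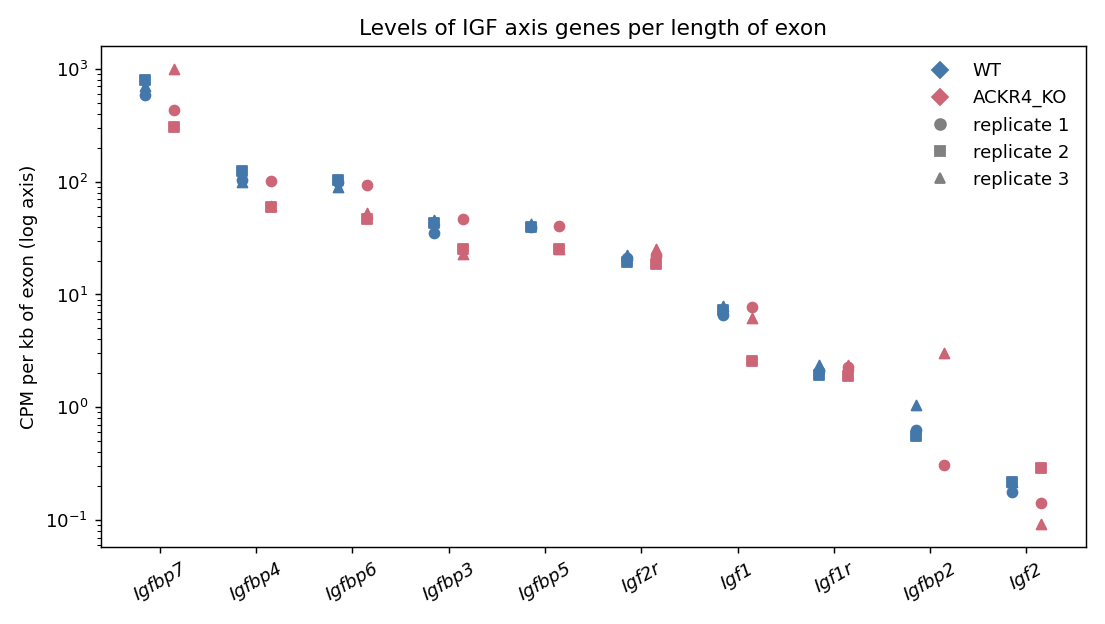
Level of each IGF axis gene in CPM per kilobase of exon (vertical log axis), ordered by the WT mean, with 1 point per library, WT in blue, ACKR4_KO in red and the marker shape giving the replicate. Igfbp7 lies highest in both groups and Igf2 lowest, and the ACKR4_KO points spread more than the WT points; the Igfbp2 level of 0 in ACKR4_KO replicate 2 cannot be drawn on a log axis.

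The question was whether IGF axis transcripts depend on ACKR4 in a heart that has been infarcted. By edgeR's quasi-likelihood test, with p adjusted over all 14406 genes by Benjamini and Hochberg, 0 of the 10 members passed an adjusted p of 0.05, as did 0% of all genes. The targeted gene Ackr4 missed it too, at a log2 fold change of -4.70 ± 0.48 (SE) and an adjusted p of 0.0990, and passed in 3 of the 17 alternatives, so a gene short of this threshold is not shown to be alike in the groups. DESeq2 called 0.271% of all genes and 0 members. At an unadjusted p under 0.05 there were 2 members, Igfbp4 and Igfbp6, both lower in ACKR4_KO, where 7.45% of all genes were past that level and 3.64% were past it and lower. The fitted log2 fold change was below 0 in 7 of the 10 members, against 48% of all genes, and their median was -0.33, against 0.01 over all genes. The groups overlapped in all 10 members, while 14.2% of all genes had groups that did not overlap.

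**Figure D2:**
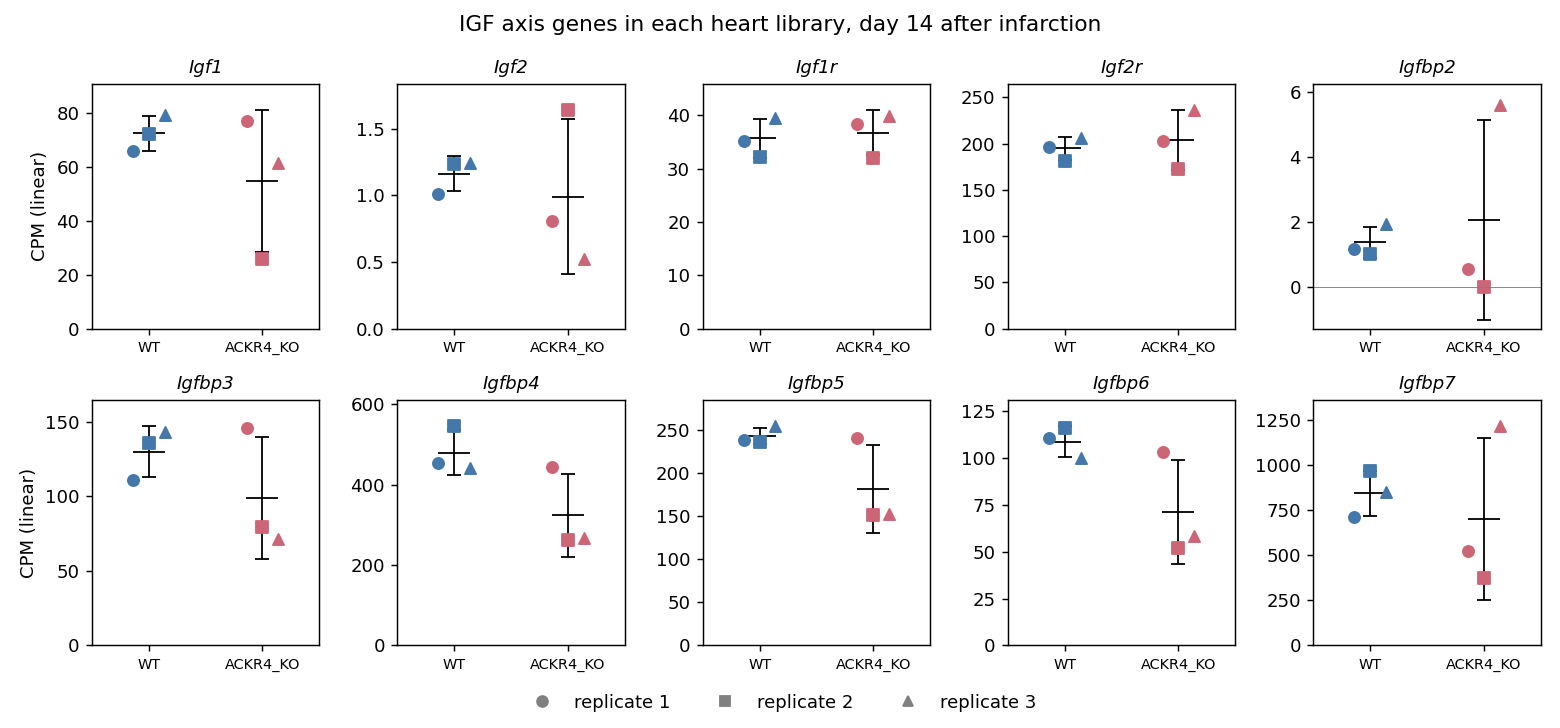
CPM of the 10 IGF axis genes (linear vertical axes, 1 panel a gene), with 1 point per library, WT in blue and ACKR4_KO in red, the marker shape giving the replicate and the bars the mean ± SD (n = 3). In the panels of Igfbp3, Igfbp4, Igfbp5 and Igfbp6 the ACKR4_KO replicate 1 lies at the WT level and replicates 2 and 3 lie below every WT library.

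Among the ligands, Igf1 (ENSMUSG00000020053, chromosome 10, 87858265 to 87937042 on the plus strand of GRCm38) was at 65.7, 72.2 and 78.9 CPM in the WT libraries. The ACKR4_KO libraries gave 77.0, 25.7 and 61.5 CPM. Replicate 2 stood far below every other library, replicate 3 just under the lowest WT library, and replicate 1 inside the WT range. This gave a log2 difference of -0.40 ± 0.36 (SE, adjusted p = 0.797 by edgeR), and it ranged from -0.73 without ACKR4_KO replicate 1 to -0.06 without ACKR4_KO replicate 2 over the alternative analyses.

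Igf2 (ENSMUSG00000048583, chromosome 7, 142650766 to 142666816, minus strand), an imprinted growth factor of fetal tissue, had few reads. It was counted 13, 12 and 18 times in the WT libraries, and 10, 16 and 6 times in the ACKR4_KO libraries. The groups overlapped, and the log2 fold change was -0.25 ± 0.48 (SE). The annotated gene Gm49394 lies on the same strand and covers 62.8% of the Igf2 exon bases, and its own row held 0 reads in every library. Where the counting left out reads that match both genes, the Igf2 level would be understated in all libraries. The imprinted noncoding RNA H19, whose gene lies 72.6 kb from Igf2, was at 33.4, 51.5 and 77.3 CPM across WT and 52.4, 24.2 and 47.7 CPM in ACKR4_KO replicates 1, 2 and 3. Its groups overlapped too.

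The receptors varied least of the members other than Igf2 and Igfbp2, with a standard deviation of log2 CPM over the 6 libraries of 0.14 for Igf1r and 0.16 for Igf2r. Igf1r (ENSMUSG00000005533, chromosome 7, 67952827 to 68233668, plus strand), the signalling receptor, was at 35.2, 32.3 and 39.5 CPM in the WT libraries. Without ACKR4 the libraries gave 38.4, 32.0 and 40.0 CPM. The ranges of the genotypes lay almost on top of each other. ACKR4_KO minus WT came to 0.04 ± 0.13 on the log2 scale (SE).

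Igf2r (ENSMUSG00000023830, chromosome 17, 12682406 to 12769664, minus strand), which clears IGF-2 and sorts lysosomal enzymes, was at 197, 182 and 207 CPM across WT and 202, 172 and 237 CPM in ACKR4_KO replicates 1, 2 and 3. Its ACKR4_KO libraries straddled the WT range, with replicate 2 below it and replicate 3 above it. On the log2 scale the difference was 0.06 ± 0.15 (SE). The ratio of Igf1r to Igf2r, both per kilobase, was steady over the 6 libraries, at 0.101 ± 0.00413 in WT and 0.101 ± 0.00611 in ACKR4_KO. The sign of both receptors' fold changes turned in at least 1 alternative analysis, so no direction can be given for them.

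The binding proteins showed separate patterns. Igfbp4 (ENSMUSG00000017493, chromosome 11, 99041244 to 99054392, plus strand), a carrier that keeps IGF from its receptor until PAPP-A cuts it, was at 453, 545 and 442 CPM in the WT libraries. The ACKR4_KO libraries gave 444, 261 and 267 CPM. Replicate 1 was level with the lowest WT libraries, and replicates 2 and 3 were at 54.4% and 55.7% of the WT mean. This gave a log2 difference of -0.57 ± 0.22 (SE, adjusted p = 0.661 by edgeR).

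Igfbp6 (ENSMUSG00000023046, chromosome 15, 102144362 to 102149511, plus strand), which prefers IGF-2 over IGF-1, was at 111, 116 and 100.1 CPM in the WT libraries. Without ACKR4 the libraries gave 103, 52.2 and 58.6 CPM. Here too replicate 1 lay inside the WT range while the others were at 47.9% and 53.8% of the WT mean. ACKR4_KO minus WT came to -0.61 ± 0.24 on the log2 scale (SE, adjusted p = 0.661 by edgeR).

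Igfbp5 (ENSMUSG00000026185, chromosome 1, 72857932 to 72874884, minus strand), a heparin-binding carrier that attaches to matrix, was at 239, 237 and 255 CPM in the WT libraries. The ACKR4_KO libraries gave 241, 152 and 153 CPM. The WT libraries were close together, with a coefficient of variation of 3.98%, and the ACKR4_KO libraries split in the same way as for Igfbp4. On the log2 scale the difference was -0.42 ± 0.19 (SE, adjusted p = 0.672 by edgeR).

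Igfbp3 (ENSMUSG00000020427, chromosome 11, 7206086 to 7213923, minus strand), the main carrier of IGF in blood, was at 111, 136 and 143 CPM in the WT libraries. Without ACKR4 the libraries gave 146, 79.3 and 71.3 CPM, so that replicate 1 was the highest of all 6 libraries and replicates 2 and 3 the lowest. This gave a log2 difference of -0.39 ± 0.27 (SE, adjusted p = 0.737 by edgeR).

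Across these genes the same ACKR4_KO libraries were low. In 5 members, Igf1, Igfbp3, Igfbp4, Igfbp5 and Igfbp6, ACKR4_KO replicates 2 and 3 lay below every WT library and replicate 1 did not, an arrangement found in 8% of all genes tested. It was singled out after the values were seen and is a description of these libraries. The library quality weights of limma-voom were lowest for the same libraries, at 0.407 for ACKR4_KO replicate 2 and 0.346 for replicate 3. Every other library had a higher weight. The weights are estimated from the spread of the same counts around the fitted group means, so they are no separate measure of quality. With these weights the log2 fold changes of Igfbp3, Igfbp4, Igfbp5 and Igfbp6 were -0.12, -0.37, -0.26 and -0.42. Whether the pattern comes from the quality of these libraries was not tested. Without ACKR4_KO replicate 1, 4 members had an unadjusted p under 0.05 by edgeR, where 13.1% of all genes did, and these were Igfbp3, Igfbp4, Igfbp5 and Igfbp6. Their log2 fold changes were then -0.79, -0.86, -0.68 and -0.98, each still short of the threshold, with adjusted p between 0.11 for Igfbp6 and 0.152 for Igfbp3. Without WT replicate 1, 2 or 3, or without ACKR4_KO replicate 2, 0 members had an unadjusted p under 0.05, where 4.24%, 4.54%, 3.27% and 6.64% of all genes did. Without ACKR4_KO replicate 3, 2 members did, where 12.5% of all genes did, and these were Igfbp7 and Igfbp2, at log2 fold changes of -0.91 and -2.14 with adjusted p of 0.197 and 0.373. Over all alternatives the adjusted p of Igfbp6 ranged from 0.11 to 0.999 and that of Igfbp4 from 0.14 to 0.999.

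Stromal markers were set beside these members. The summed level of the 10 fibroblast markers was 13659 to 15276 CPM across WT and 12691, 6887 and 14601 CPM in ACKR4_KO replicates 1, 2 and 3, and none of the markers was at 0 in any library. Of the 10, 9 had a fold change below 0, where 48% of all genes did, and 0 passed the test. In ACKR4_KO replicate 2 all 10 were below their WT mean, from 24.7% for Postn, a scar protein gene, to 87.4% for Gsn, a regulator of actin. In ACKR4_KO replicate 3 the markers split. Pdgfra, the receptor that defines cardiac fibroblasts, was at 68.3% of its WT mean there, Dpt at 71.5%, the proteoglycan genes Lum and Dcn at 61.9% and 43.8%, and Gsn at 28.6%. The other 5 were at or above the WT mean in that library, with the fibroblast transcription factor Tcf21 at 113%, the collagen genes Col3a1, Col1a2 and Col1a1 at 102%, 162% and 174%, and Postn at 193%. Igfbp3, Igfbp4, Igfbp5 and Igfbp6 were at 47.9% to 62.3% in replicate 2 and 53.8% to 62.7% in replicate 3. In ACKR4_KO replicate 1 these members were at 92.4% to 112% of their WT mean, and Pdgfra, Dpt and Dcn at 104%, 111% and 97.7%. Lum and Gsn were at 81.3% and 87.3% there, and the other 5 markers at 71.7% to 86.4%. In bulk tissue, fewer cells of a type and less RNA per cell cannot be told apart, and the part of fibroblast content in the result was not tested. Mural cell markers summed to 2031 to 2330 CPM across WT and 1676 to 1992 CPM in ACKR4_KO, so the sums did not overlap. Of the 10 markers, 4 had groups that did not overlap, where 14.2% of all genes did. The groups of Rgs5, the largest part of the sum, overlapped, at 1067 CPM in ACKR4_KO replicate 2 and 1029 CPM in WT replicate 1. Endothelial markers summed to 3039 to 3275 CPM and 2458 to 3264 CPM, and macrophage markers to 1604 to 2028 CPM and 1287 to 1909 CPM. Fold changes were also below 0 in 9 of 10 endothelial, 8 of 10 mural and 8 of 10 macrophage markers. In the epicardial and mesothelial list 4 of 10 were. Among the WT libraries, replicate 2 had the lowest lung sum, 43.1 CPM, with the highest Igfbp4 and Igfbp6 but the lowest Igfbp5, while Igfbp3 lay between its values in the other WT libraries.

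**Figure D3:**
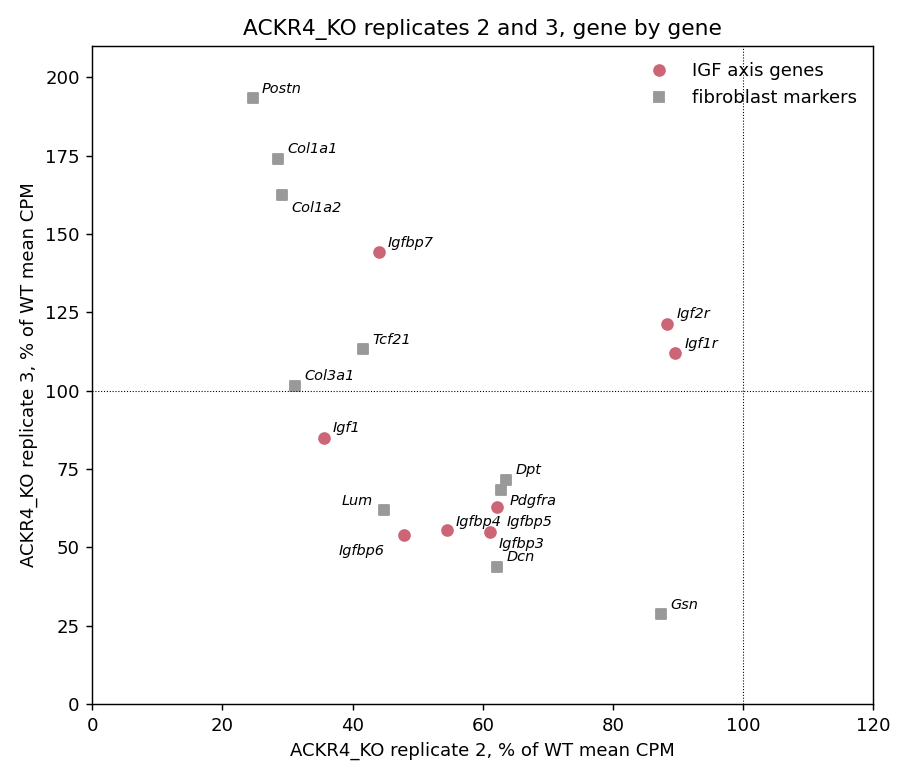
Level in ACKR4_KO replicate 2 (horizontal axis) and replicate 3 (vertical axis) as a percent of the WT mean CPM, for 8 IGF axis genes (red circles) and 10 fibroblast markers (grey squares), with dotted lines at 100%. Igfbp3, Igfbp4, Igfbp5 and Igfbp6 lie together near Pdgfra, Lum, Dpt and Dcn. Igfbp7, Tcf21, Col1a1, Col1a2 and Postn lie at low values in replicate 2 and above 100% in replicate 3. Col3a1, at 31.2% and 102%, lies near Igf1, at 35.6% and 85.0%. Gsn, at 87.4% and 28.6%, lies apart, and the receptors lie between 88.4% and 121%. Igf2 and Igfbp2, which had few reads, are left out.

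The promoters of Igfbp3, Igfbp4, Igfbp5 and Igfbp6 were set beside that of Igfbp7, to show what letters they hold. Those 4 genes were low in both ACKR4_KO replicates 2 and 3. Igfbp7 was low in replicate 2 too, at 44.05% of its WT mean, but was at 144% in replicate 3. Each sequence is the 250 bases before the start of transcription in RefSeq (GRCm38.p6), read toward the gene. Windows were found for all 10 members. Capitals mark matches, on either strand, to 4 motifs, and no matches in these windows overlap. The first is the TATA box of core promoters, searched as TATAAA. The next is the binding motif of NF-Y, searched as CCAAT. The others are the GC box bound by the SP family, searched as GGGCGG, and the binding motif of AP-1, searched as TGANTCA.
Igfbp3 (chr11:7213924-7214173, minus strand): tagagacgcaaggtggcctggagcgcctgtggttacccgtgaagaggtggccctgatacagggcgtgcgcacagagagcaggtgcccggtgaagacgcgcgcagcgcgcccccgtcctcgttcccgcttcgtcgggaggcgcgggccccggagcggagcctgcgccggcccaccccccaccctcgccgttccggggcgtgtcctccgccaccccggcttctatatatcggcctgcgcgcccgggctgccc
Igfbp4 (chr11:99040994-99041243, plus strand): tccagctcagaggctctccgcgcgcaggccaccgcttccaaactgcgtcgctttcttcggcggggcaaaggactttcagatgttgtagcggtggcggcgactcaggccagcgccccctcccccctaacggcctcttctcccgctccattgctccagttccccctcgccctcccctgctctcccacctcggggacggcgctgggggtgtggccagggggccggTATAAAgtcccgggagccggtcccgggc
Igfbp5 (chr1:72874866-72875115, minus strand): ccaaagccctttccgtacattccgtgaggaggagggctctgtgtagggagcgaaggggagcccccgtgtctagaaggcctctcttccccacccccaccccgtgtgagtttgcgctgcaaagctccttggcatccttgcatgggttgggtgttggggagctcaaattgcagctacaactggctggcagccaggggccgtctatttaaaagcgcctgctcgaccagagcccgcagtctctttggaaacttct
Igfbp6 (chr15:102143936-102144185, plus strand): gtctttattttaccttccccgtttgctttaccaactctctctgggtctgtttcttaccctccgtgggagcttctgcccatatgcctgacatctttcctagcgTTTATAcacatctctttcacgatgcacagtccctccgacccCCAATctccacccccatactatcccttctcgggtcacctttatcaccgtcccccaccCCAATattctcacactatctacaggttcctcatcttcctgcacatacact
Igfbp7 (chr5:77408046-77408295, minus strand): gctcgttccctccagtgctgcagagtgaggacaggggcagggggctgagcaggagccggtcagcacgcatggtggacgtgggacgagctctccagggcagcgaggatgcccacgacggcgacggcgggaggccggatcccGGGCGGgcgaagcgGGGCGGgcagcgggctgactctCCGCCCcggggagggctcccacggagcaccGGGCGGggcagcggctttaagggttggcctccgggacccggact

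The windows of Igfbp3, Igfbp4, Igfbp5 and Igfbp6 shared none of the 4 motifs as a group. Igfbp4 held a TATA box that begins 28 bases before the start, and Igfbp6 held its reverse complement 148 bases before the start, a motif found in 12.4% of the 32851 windows of the same length. Igfbp6 also held CCAAT at 107 and 50 bases before the start, which 33.8% of windows hold. The Igfbp3 and Igfbp5 windows held no exact match, and variant forms of the motifs were not searched. The Igf1 window held an AP-1 motif that begins 37 bases before the start, which 6.75% of windows hold. It also held the reverse complement of CCAAT at 142 bases. Igfbp7 held 4 GC boxes, at 110, 96, 74 and 44 bases before the start, and 32.7% of windows hold at least 1. The GC content was 73.2%, 69.2%, 58.8% and 49.6% for Igfbp3, Igfbp4, Igfbp5 and Igfbp6 and 74.0% for Igfbp7, against a median of 52.4% over all windows. A match is a description of the letters and not a site of binding.

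Igfbp7 (ENSMUSG00000036256, chromosome 5, 77349240 to 77408041, minus strand) encodes a secreted protein of vessels and stroma that binds IGF weakly. It was at 713, 964 and 847 CPM in the WT libraries. The ACKR4_KO libraries gave 523, 371 and 1213 CPM, so that the lowest and the highest of the 6 libraries were both ACKR4_KO. ACKR4_KO minus WT came to -0.26 ± 0.41 on the log2 scale (SE, adjusted p = 0.891 by edgeR), and it was 0.05 without ACKR4_KO replicate 2 and -0.91 without ACKR4_KO replicate 3 (adjusted p = 0.197 by edgeR). The fibrillar collagen gene Col1a1 had the same order of libraries within ACKR4_KO, at 86.4%, 28.6% and 174% of its WT mean in replicates 1, 2 and 3, where Igfbp7 was at 62.1%, 44.05% and 144%. The scar protein gene Postn was at 85.0%, 24.7% and 193%. Both were picked from the fibroblast markers with their values in view. In replicate 3 Pdgfra, Dpt, Lum, Dcn and Gsn were instead below their WT mean, from 28.6% for Gsn to 71.5% for Dpt. Reads from Polr2b, on the opposite strand, can reach 7.03% of the Igfbp7 exon bases.

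Igfbp2 (ENSMUSG00000039323, chromosome 1, 72824503 to 72852474, plus strand), a carrier with a motif for integrin binding, was scarce and uneven. It was counted 15, 10 and 28 times in the WT libraries and 7, 0 and 64 times in the ACKR4_KO libraries. The count of 0 allows up to 0.307 CPM in that library, for counting error only, where ACKR4_KO replicate 3 was at 5.59 CPM. On the log2 scale the difference was 0.57 ± 1.17 (SE), and it became -2.14 without ACKR4_KO replicate 3, so its direction rests on 1 library. Igfbp2 and Igfbp5 are neighbours on chromosome 1, 5.46 kb apart and facing each other, but the ACKR4_KO library highest in Igfbp2 was among the 2 lowest in Igfbp5.

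The makeup of the binding-protein transcripts, as shares of their summed CPM per kilobase, was alike in the WT libraries. Igfbp7 took 68.0%, 71.9% and 71.5% of the sum in the WT libraries, and 60.7%, 66.2% and 85.9% in the ACKR4_KO libraries. The ACKR4_KO shares lay on both sides of the WT range. Igfbp4 took 11.1% ± 0.806 of the sum in WT and 14.1%, 12.8% and 5.19% in the ACKR4_KO replicates. Without Igfbp7, the summed level was 278, 311 and 279 CPM per kilobase in WT and 280, 157 and 164 in ACKR4_KO replicates 1, 2 and 3. Set against the ligands, that sum was 38.8 ± 4.07 times the summed level of Igf1 and Igf2 in WT and 38.6 ± 14.4 times in ACKR4_KO. The means of this ratio were close, but in ACKR4_KO it ran from 26.1 in replicate 3 to 54.3 in replicate 2.

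**Figure D4:**
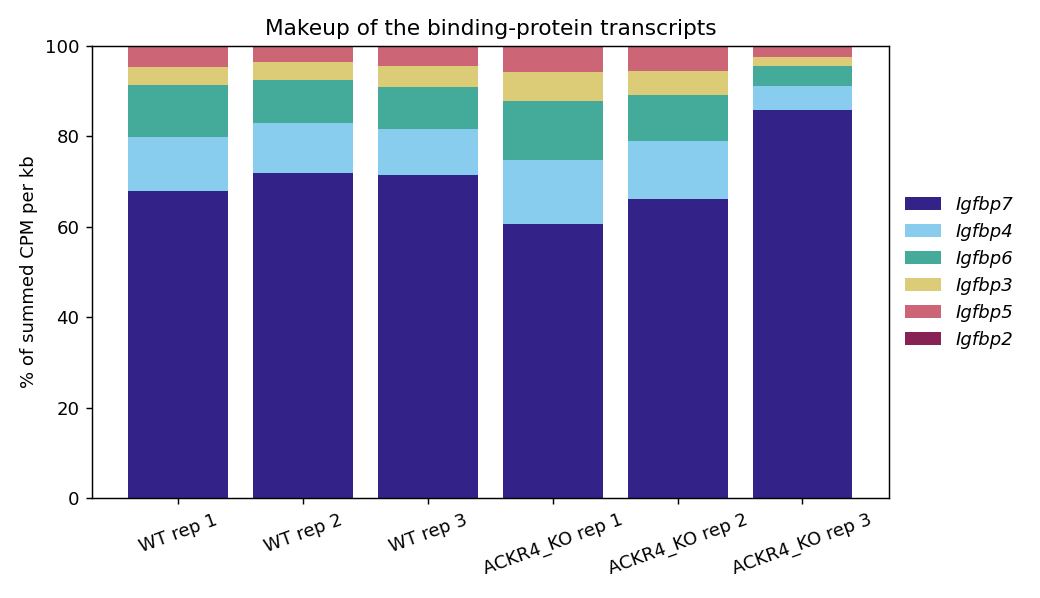
Share of each binding-protein gene in their summed CPM per kilobase of exon (stacked bars, percent from 0), 1 bar per library. Igfbp7 takes 68.0% to 71.9% in the WT libraries and 60.7% to 85.9% in the ACKR4_KO libraries.

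Genes whose profile over the 6 libraries was most like that of a member were sought for the most variable members with a mean of at least 10 CPM, which were Igfbp7, Igf1 and Igfbp6. Likeness was the largest difference in any library between the profiles of log2 CPM, each centred on its mean, over 9445 other genes. Closest to Igfbp7 were Rcn3 and Ppic, which encode proteins of the endoplasmic reticulum, with a largest difference of 0.10 and 0.11, and Chpf, an enzyme gene of chondroitin synthesis, with 0.15. Among the genes closest to Igf1 were Itih5 and B3gnt9, at 0.16 and 0.18. Closest to Igfbp6 were Pard6g, Lbp and Bace2, at 0.07, 0.14 and 0.15. With so many genes and 6 libraries, close profiles are found for any pattern, and this is a description.

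Other genes of the pathway were read from lists, and 0 of them passed the test by edgeR. Of 9 further axis genes, 4 were tested, and the hepatic carrier gene Igfbp1 had 1 read in all. The insulin receptor gene Insr was at 111, 96.0 and 105 CPM across WT and 150.2, 116 and 124 CPM in ACKR4_KO replicates 1, 2 and 3. Its groups did not overlap, and the log2 fold change was 0.32 ± 0.14 (SE, adjusted p = 0.664 by edgeR). Igfals, which encodes the acid-labile subunit of the circulating IGF complex, was near 3.03 ± 0.393 CPM across WT and 4.06 ± 1.17 CPM in ACKR4_KO.

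Of 6 genes for proteases that cut binding proteins and their inhibitors, 5 were tested. Htra3, a secreted serine protease, was at 308, 346 and 301 CPM across WT and 340, 236 and 139 CPM in ACKR4_KO replicates 1, 2 and 3, lowest in the last. Its relative Htra1 was at 103, 122 and 99.7 CPM across WT and 102, 103 and 102 CPM in ACKR4_KO. The log2 fold change of Pappa, the protease that cuts Igfbp4, was 0.50 ± 0.41 (SE), and that of Stc2, an inhibitor of that protease, was 0.29 ± 0.26 (SE).

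Of 26 genes for signalling below the receptor, all were tested, 17 had a fold change above 0 and 9 below, with a median log2 fold change of 0.05. At an unadjusted p under 0.05 there were 3, all higher in ACKR4_KO, where 3.81% of all genes were. The same 3 were those whose groups did not overlap with ACKR4_KO higher, which 6.53% of all genes showed. Pik3r1, the regulatory subunit of PI3 kinase, was at 96.2, 82.3 and 100.3 CPM in the WT libraries and 136, 125 and 138 CPM in the ACKR4_KO libraries. It differed by a log2 fold change of 0.52 ± 0.12 (SE, adjusted p = 0.606 by edgeR), and all 3 ACKR4_KO libraries lay above every WT library. The kinase gene Mtor had a log2 fold change of 0.28 ± 0.11 (SE), and the forkhead gene Foxo3, whose protein AKT keeps out of the nucleus, had 0.26 ± 0.11 (SE). The abundant kinase genes Akt1 and Akt2 had 0.09 and 0.23. Cardiomyocyte markers had 10 of 10 fold changes above 0, where 48% of all genes were below 0, and none passed the test. Their median was 0.42, and the group sums did not overlap. Of these 10 markers, 4 had groups that did not overlap with ACKR4_KO higher, against the same 6.53% of all genes. The part of cardiomyocyte content in these values was not tested.

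Of 6 genes that carry the growth hormone signal for Igf1 expression, 0 had an unadjusted p under 0.05. The hormone's receptor gene Ghr was at 115 ± 6.67 CPM across WT and 124 ± 20.2 CPM in ACKR4_KO, and Stat5b, a transcription factor that drives Igf1, at 76.4 ± 3.09 and 81.8 ± 9.42 CPM. The kinase gene Jak2 and the feedback inhibitor Socs2 each had a log2 fold change of -0.18.

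**Figure D5:**
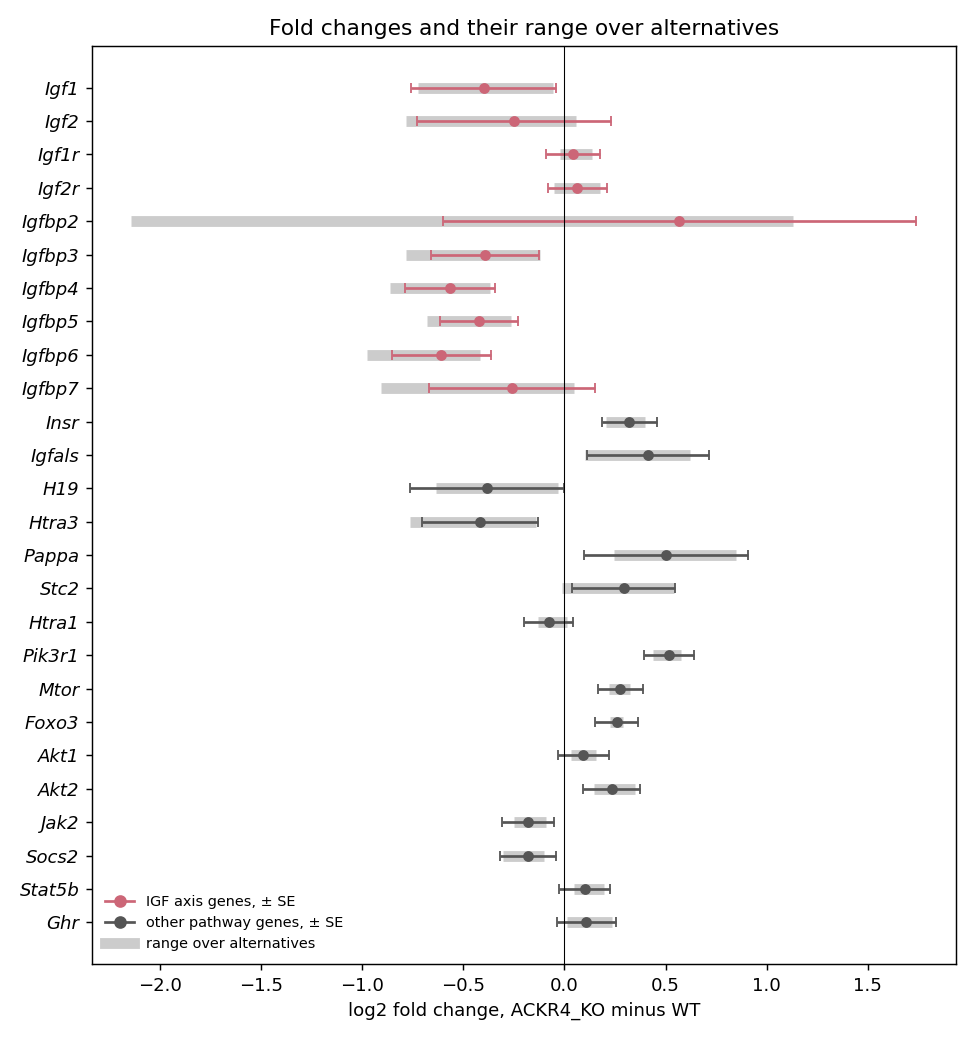
Log2 fold change of ACKR4_KO against WT (horizontal axis) with its standard error (bars) for the 10 IGF axis genes in red and the other named pathway genes in grey, and the range over the alternative analyses as a light band. The bands of Igf1, Igfbp3, Igfbp4, Igfbp5 and Igfbp6 stay below 0, those of Igf2, Igf1r, Igf2r, Igfbp2 and Igfbp7 cross it, and that of Igfbp2 is the widest.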

How the data were processed

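The deposited table holds raw counts of reads per Ensembl gene for each library. The authors made them, per the submitters' processing notes, with HTSeq 0.6.0, HISAT2 and CASAVA 1.8.2 on the build mm10. The annotation counted and the strand setting were not given in the sources used here. Without the strand setting, reads of overlapping genes on opposite strands cannot be told apart. Groups and replicate numbers came from the sample descriptions.

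Symbols, coordinates and exon lengths were taken from GENCODE M21 (GRCm38, the assembly of mm10), which held 54495 of the 54532 rows. The filter was filterByExpr (a minimum count of 10 and a total of 15). Libraries were scaled by TMM and genes tested with edgeR 4.0.16 (robust quasi-likelihood, two-sided, all 6 libraries, R 4.3.3), with a threshold of 0.05 on the p adjusted over all genes. CPM used TMM-scaled totals. Standard errors came from the log2 fold change over the root of its F statistic.

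The members and gene lists were chosen with earlier results of these data known. Named are all 10 members and, in each pathway list, the 3 genes with the smallest p and the 2 with the highest CPM, while other names were picked with their values in view. A gene that the rules would name is not reported here. Alternatives included other scalings, DESeq2 1.42.0, limma-voom 3.58.1 with and without library weights, no robust estimation, other filters, fewer genes, the replicate number as a block, and each library left out.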

Additional observations from a re-analysis of the deposited data

How the results depend on the processing

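Over the 17 alternatives the sign held for 5 of the 10 members, Igf1, Igfbp3, Igfbp4, Igfbp5 and Igfbp6, and 0 members passed the adjusted threshold in any. The number of genes called was 0 in the main analysis, 39 with DESeq2, 24 with no filter on low counts and 6 with the replicate number as a block, and 0 to 1 with a library left out. The number of members at an unadjusted p under 0.05 was 2, and became 3 with DESeq2, with limma-voom, with no filter and with the replicate block, 0 with library quality weights, and 0 to 4 with a library left out. Log2 fold changes turned to -1.22 with limma-voom, -1.27 with quality weights and -0.24 with the replicate block for Igfbp2. With 1 library left out at a time, the log2 fold change ranged from -2.14 to 1.13 for Igfbp2, -0.78 to 0.0563 for Igf2, -0.0228 to 0.14 for Igf1r, -0.0526 to 0.17 for Igf2r, -0.91 to 0.0473 for Igfbp7, -0.0142 to 0.54 for Stc2 and -0.13 to 0.0148 for Htra1. The ends past 0 came without ACKR4_KO replicate 3 (Igfbp2, Igf2, Igf2r and Stc2), ACKR4_KO replicate 2 (Igfbp7) or WT replicate 2 (Igf1r and Htra1). The cause was not tested. Leaving out a library also changes the number of libraries, which are then 2 in 1 group.

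The replicate numbers share only a number. The deviations of same-numbered libraries correlated across genes at 0.07, 0.05 and 0.13, and 5 of 6 libraries correlated best with their own number. The deviations were taken from group means of 3 libraries, so these correlations are not independent of each other. A pairing is not given by the design and was not tested. Counting noise limits Igf2 and Igfbp2, with at most 18 and 64 reads in a library.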

Other observations

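Antisense RNAs annotated across members were counted at a low level, apart from Airn. Airn, the imprinted RNA that runs across Igf2r without sharing exon bases with it, was counted 100, 48 and 109 times in WT and 108, 79 and 102 times in ACKR4_KO (replicates 1, 2 and 3). Igf1os had 0 to 2 reads and Igf2os 0 to 4 reads in a library.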
